A study of Homo sapiens with 36 samples.

Results

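Collagen prolyl and lysyl hydroxylases were followed in K562 cells, a human erythroleukemia line that grows in suspension, across 3 oxygen levels and 4 times. The genes were taken by name from the gene table: P4HA1, P4HA2 and P4HA3, which encode the alternative catalytic alpha subunits of collagen prolyl 4-hydroxylase; P4HB, which encodes its beta subunit, protein disulfide isomerase; and PLOD1, PLOD2 and PLOD3, which encode lysyl hydroxylases. All 7 were among the 21950 genes listed, and 5 of them (P4HA1, P4HA2, P4HB, PLOD1 and PLOD3) were among the 10625 genes that entered the tests because their FPKM averaged 1 or more. FPKM scales the fragments of a gene by its transcript length and by the size of the library, so levels of different genes can be set side by side.

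Prolyl 4-hydroxylases of this family work in the endoplasmic reticulum as tetramers of alpha and beta subunits and hydroxylate prolines in the Gly-X-Y repeats of collagen chains, which the triple helix needs to be stable at body temperature. Lysyl hydroxylases act on collagen lysines, which serve as attachment sites for sugars and for the cross-links made by lysyl oxidases. Both enzyme classes use molecular oxygen, 2-oxoglutarate, iron and ascorbate, and several of their genes are known targets of the hypoxia-inducible factors (HIF) in other cells. Erythroleukemia cells are not known as large producers of collagen.

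The groups were cells in 1% oxygen, in 5% oxygen and in 21% oxygen, the ordinary incubator level, each harvested at 6 h, 24 h, 3 d and 6 d with 3 libraries, 36 in all. All were the same unmodified line in the same DMEM medium, in plates kept in an incubator of their oxygen level and passaged at 3 d. Oxygen level and incubator therefore cannot be told apart, nor can the 6 d time and the passage before it. Whether replicates came from separate cultures is not given in the labels, so p-values measure only the spread between these libraries.

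No counts were in the tables, so the depth in reads is unknown. In 35 libraries, 14512 to 19543 genes were above 0. Replicate 3 of 1% oxygen at 3 d had 7220 and listed 0 for 429 of 3695 genes whose median was above 20 FPKM, against 0 to 7 of them in each other library. It is named the shallow library below, and it stayed in every fit unless stated. The K562 identity was checked on 13 erythroid and leukemia markers, all of which passed the filter; GATA1 averaged 227 FPKM and HBG1 1191 FPKM. Their summed level, mostly globin, was 36420 to 43650 FPKM in 1% oxygen at 6 d, 21890 to 23420 FPKM in 5% oxygen at 6 d and 5200 to 5571 FPKM in 21% oxygen at 6 d, and its part in the results at 6 d was not tested. Of 11 fibroblast and stromal markers, 2 passed the filter, FN1 and SPARC; the list's sum lay between 14.7 and 52.3 FPKM over all groups, and DCN, LUM and PDGFRA averaged below 0.2 FPKM. None of 10 lymphoid and myeloid markers passed. Of 13 known HIF targets, 13 were higher in 1% than in 21% oxygen averaged over the 4 times, with a median log2 difference of 1.38 against -0.07 over all genes tested. In that comparison 1317 of the 10625 genes tested were higher and 2022 lower.

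The sequences around the start of the genes are shown because the members differed in how they moved with oxygen, and because HIF binds the core letters ACGTG or GCGTG. RefSeq windows of 250 bases before to 50 bases after the gene start (GRCh38.p14) were matched for 6 of the 7 genes; P4HA3 was the other one. Both motifs were searched on both strands. The 4 windows below belong to the alpha subunit genes that moved most (P4HA1, chr10:73096817-73097116, minus strand; P4HA2, chr5:132227042-132227341, minus strand), to PLOD1, which rose less (chr1:11934467-11934766, plus strand), and to PLOD3, which rose in no comparison of low with 21% oxygen (chr7:101217532-101217831, minus strand). Each reads 5′ to 3′ on the gene's strand, and capitals mark a motif.
P4HA1: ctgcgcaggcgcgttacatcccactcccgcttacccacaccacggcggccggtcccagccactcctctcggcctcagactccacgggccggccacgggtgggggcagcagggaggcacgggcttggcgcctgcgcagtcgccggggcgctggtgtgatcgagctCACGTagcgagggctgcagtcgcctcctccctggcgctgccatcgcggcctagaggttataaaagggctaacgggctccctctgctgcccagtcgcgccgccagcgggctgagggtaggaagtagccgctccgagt
P4HA2: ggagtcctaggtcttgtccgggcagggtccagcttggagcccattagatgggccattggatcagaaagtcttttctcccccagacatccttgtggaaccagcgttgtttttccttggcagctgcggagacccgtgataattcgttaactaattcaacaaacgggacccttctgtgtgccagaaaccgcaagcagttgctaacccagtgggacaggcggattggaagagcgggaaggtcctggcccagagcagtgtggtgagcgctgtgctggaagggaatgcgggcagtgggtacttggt
PLOD1: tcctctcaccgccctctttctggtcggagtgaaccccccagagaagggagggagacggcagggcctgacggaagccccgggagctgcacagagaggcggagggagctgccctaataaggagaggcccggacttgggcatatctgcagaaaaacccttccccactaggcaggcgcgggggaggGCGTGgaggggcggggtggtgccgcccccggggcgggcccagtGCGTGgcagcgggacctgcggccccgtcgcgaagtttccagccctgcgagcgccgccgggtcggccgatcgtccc
PLOD3: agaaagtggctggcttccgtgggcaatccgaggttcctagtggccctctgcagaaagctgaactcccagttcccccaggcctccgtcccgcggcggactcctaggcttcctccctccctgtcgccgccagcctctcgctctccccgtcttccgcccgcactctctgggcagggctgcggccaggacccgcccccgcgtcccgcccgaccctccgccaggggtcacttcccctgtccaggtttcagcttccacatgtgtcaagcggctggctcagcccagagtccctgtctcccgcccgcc

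P4HA1 held ACGTG once, on the opposite strand, where it is read as CACGT, with its first base at position -86 from the start. PLOD1 held GCGTG at -68 and at -25. The windows of P4HA2 and PLOD3 held neither motif. Of those not printed, P4HB held GCGTG at -89, and PLOD2 held ACGTG at -146 and on the opposite strand at -200, and GCGTG at -213. Either motif was thus found in 4 of 6 windows, beside 48.4% of 35116 human promoter windows of the same length (ACGTG in 21.4% and GCGTG in 36.5%). A match is a description of the letters, and the absence of one says nothing about sites outside the window: P4HA2, whose group means ran over a 10.6-fold range, had no match, and PLOD2, with most matches, was barely detected.

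P4HA1, the main catalytic alpha subunit gene in these cells, did not differ by the test at 6 h and was higher in both low oxygen levels at 24 h, 3 d and 6 d. The libraries are bulk RNA, so a rise in every cell and a rise in some of the cells cannot be told apart. At 24 h its level was 83.4, 83.2 and 90.7 FPKM in 1% oxygen, 47.7, 49.6 and 43.8 FPKM in 5% oxygen, and 26.5, 23.0 and 24.9 FPKM in 21% oxygen. The 3 oxygen levels did not overlap, and their order followed the oxygen level. At 3 d it reached 259, 275.5 and 204 FPKM in 1% oxygen, the last in the shallow library, and 238, 239 and 247 FPKM in 5% oxygen, against 31.8, 33.3 and 35.2 FPKM in 21% oxygen. Both low levels then overlapped each other and stood far above 21% oxygen. At 6 d the values were 177.5, 177 and 188 FPKM in 1% oxygen, 174, 185 and 168 FPKM in 5% oxygen, and 29.6, 37.8 and 34.6 FPKM in 21% oxygen.

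Tests were made with limma on log2(FPKM + 1) over all genes, with Benjamini-Hochberg adjustment and a threshold of 0.05; folds below are on that scale, which understates the change of weakly expressed genes. P4HA1 differed between 1% and 21% oxygen by a log2 difference of 1.75 ± 0.11 (SE, n = 3 each, limma adjusted p = 6.44e-12) at 24 h, 2.83 (7.13-fold, limma adjusted p = 1.58e-17) at 3 d and 2.38 (5.22-fold, limma adjusted p = 8.36e-16) at 6 d. In 5% against 21% oxygen the differences were 0.90 (limma adjusted p = 2.86e-05), 2.82 and 2.34 at the same times. The difference at 24 h in 5% oxygen did not pass with only the compared groups in the fit (limma adjusted p = 0.12). At 6 h the level was 19.4, 20.05 and 26.3 FPKM in 1% oxygen, 28.5, 26.7 and 30.1 FPKM in 5% oxygen, and 24.6, 24.0 and 21.5 FPKM in 21% oxygen. The 5% libraries lay above all others, but the log2 difference from 21% oxygen of 0.27 did not pass (unadjusted p = 0.0163, limma adjusted p = 1). Over the 12 groups the mean level ran over an 11.2-fold range, and the within-group spread was 0.125 on the log2 scale.

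P4HA2, the alternative alpha subunit, was expressed at a lower level and was likewise highest at 3 d in low oxygen. At 24 h it stood at 12.2, 10.9 and 12.3 FPKM in 1% oxygen, 8.14, 8.24 and 7.30 FPKM in 5% oxygen, and 7.17, 5.59 and 6.14 FPKM in 21% oxygen. The log2 difference from 21% oxygen passed in 1%, at 0.81 (limma adjusted p = 0.000757), and did not pass in 5%, at 0.29 (limma adjusted p = 0.286). In 5% oxygen it passed with array weights (0.40, limma adjusted p = 0.0131) and on TPM (0.70, limma adjusted p = 0.0129). Rescaling to TPM moved the median of all genes in that comparison as well, to 0.36 against -0.02 as deposited. The 5% libraries lay just above those of 21% oxygen, without overlap. At 3 d its level was 58.3, 61.7 and 39.4 FPKM in 1% oxygen, the last in the shallow library, and 56.2, 52.3 and 61.6 FPKM in 5% oxygen, against 9.06, 10.3 and 11.1 FPKM in 21% oxygen. No low-oxygen library overlapped those of 21% oxygen, with log2 differences of 2.26 ± 0.15 (SE, limma adjusted p = 2.68e-12) in 1% and 2.37 ± 0.15 (SE, limma adjusted p = 2.42e-12) in 5% oxygen. At 6 d it was 23.0, 27.8 and 25.7 FPKM in 1% oxygen, 30.5, 36.1 and 36.3 FPKM in 5% oxygen, and 9.86, 14.2 and 11.2 FPKM in 21% oxygen. The log2 difference from 21% oxygen was then 1.07 in 1% and 1.48 in 5% oxygen, and at 6 h it was -0.04 and -0.10, neither of which passed (limma adjusted p = 1 in both).

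P4HA3, the remaining alpha subunit gene, was above 0 in 9 of 36 libraries and at most 0.108 FPKM, so that nearly all the alpha subunit message of these cells was that of P4HA1 and P4HA2. It did not enter the tests.

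P4HB, whose product also works as a free disulfide isomerase, was the most abundant member, at a mean of 283 FPKM, and had the narrowest range of group means among the prolyl hydroxylase subunits that were tested, 1.96-fold. At 3 d its level was 356, 416.5 and 404 FPKM in 1% oxygen and 428, 413 and 491 FPKM in 5% oxygen, against 283, 279 and 294 FPKM in 21% oxygen. Both low levels were higher without overlap, by log2 differences of 0.46 ± 0.09 (SE, limma adjusted p = 8.34e-05) and 0.63 ± 0.09 (SE, limma adjusted p = 2.1e-06). At 6 d it was 262, 245 and 272 FPKM in 1% oxygen, 340.2, 358 and 324 FPKM in 5% oxygen, and 232, 237 and 225.5 FPKM in 21% oxygen. At that time 5% oxygen passed, with 0.55 (limma adjusted p = 2.51e-05), and 1% oxygen did not, with 0.16 (limma adjusted p = 0.288). At 24 h its log2 difference in 1% against 21% oxygen was -0.07 and did not pass; under quantile normalization it was 0.30 (limma adjusted p = 0.0335) and on rescaling to TPM 0.39 (limma adjusted p = 0.0225), so no direction is given for that time. Rescaling to TPM moved the median of all genes in that comparison to 0.39, against -0.004 as deposited.

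**Figure D1:**
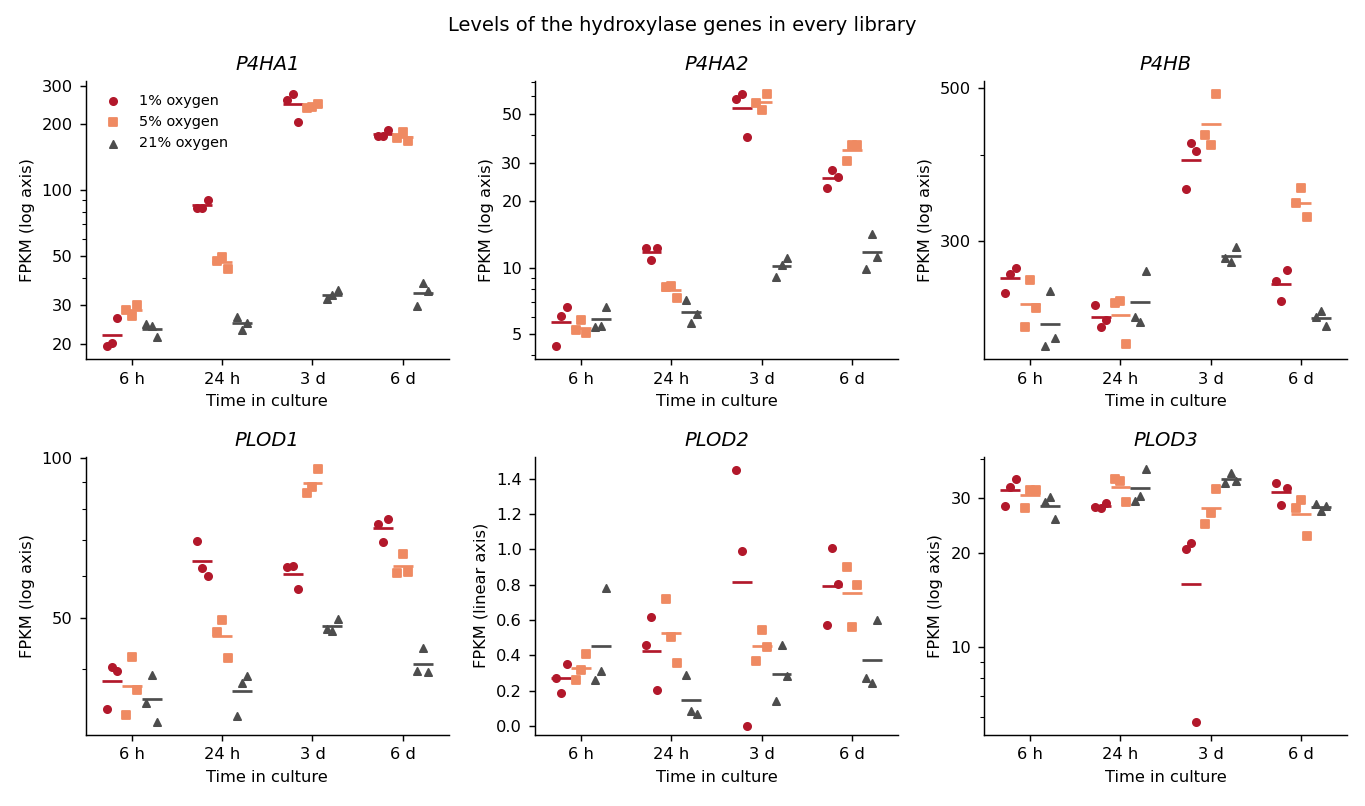
FPKM of 6 of the 7 hydroxylase genes (vertical axes, log scale except for PLOD2) in each library at 4 times, for 1%, 5% and 21% oxygen; points are libraries and bars group means (n = 3). P4HA1 and P4HA2 separate from 21% oxygen at 3 d and 6 d in both low levels, and the low point of PLOD3 at 3 d (5.78 FPKM) is the shallow library. P4HA3, at most 0.108 FPKM, is left out.

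The share of P4HA1 in the summed alpha subunit level, and the level of P4HB per alpha subunit, follow from these values. P4HA1 made up 87.9% ± 0.656 in 1% oxygen, 85.6% ± 0.182 in 5% oxygen and 79.7% ± 0.912 in 21% oxygen at 24 h (SD, n = 3 each). At 6 d the shares were 87.6% ± 1.14 in 1% oxygen, 83.6% ± 1.44 in 5% oxygen and 74.4% ± 1.52 in 21% oxygen. The groups did not overlap at 24 h, 3 d or 6 d between low and 21% oxygen. At 3 d the shares were 81.6% to 83.8% in 1%, 80% to 82% in 5% and 76% to 77.8% in 21% oxygen. At 6 h 1% oxygen (76.9% to 81.5%) overlapped 21% oxygen (76.4% to 82%), and 5% oxygen (82.2% to 85.6%) lay just above it. The ratio of P4HA1 to P4HA2 per library, on the log2(FPKM + 1) scale and averaged over the 4 times, was higher in 1% than in 21% oxygen by 0.69 (2.38 against 1.69; two-sided exact permutation test with labels exchanged within times, p = 0.00025, adjusted p = 5e-04 over 8 such tests). In 5% oxygen it was higher by 0.57 (2.26 against 1.69; exact permutation p = 1.25e-05, the smallest that 160000 arrangements can give, adjusted p = 1e-04). By time, the difference in the ratio between 1% and 21% oxygen was -0.06 at 6 h, 0.94 at 24 h, 0.58 at 3 d and 1.32 at 6 d.

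P4HB was in large excess over the alpha subunits in 21% oxygen, and much less so in low oxygen. Per FPKM of the 3 alpha subunit genes together, P4HB had 9.72 ± 1.22, 2.38 ± 0.147, 1.34 ± 0.283 and 1.26 ± 0.0558 FPKM in 1% oxygen at 6 h, 24 h, 3 d and 6 d (SD, n = 3 each). The values in 5% oxygen were 7.19 ± 0.785, 4.25 ± 0.103, 1.49 ± 0.0916 and 1.62 ± 0.0382, and those in 21% oxygen 7.78 ± 0.806, 7.87 ± 0.917, 6.55 ± 0.326 and 5.12 ± 0.686. From 24 h on, no low-oxygen library reached the lowest of its time in 21% oxygen. The log2 ratio of P4HA1 to P4HB, averaged over the 4 times, was higher by 1.52 in 1% than in 21% oxygen (-1.54 against -3.07; exact permutation p = 0.000238, adjusted p = 5e-04) and by 1.28 in 5% than in 21% oxygen (-1.79 against -3.07; exact permutation p = 2.5e-05, adjusted p = 1e-04).

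**Figure D2:**
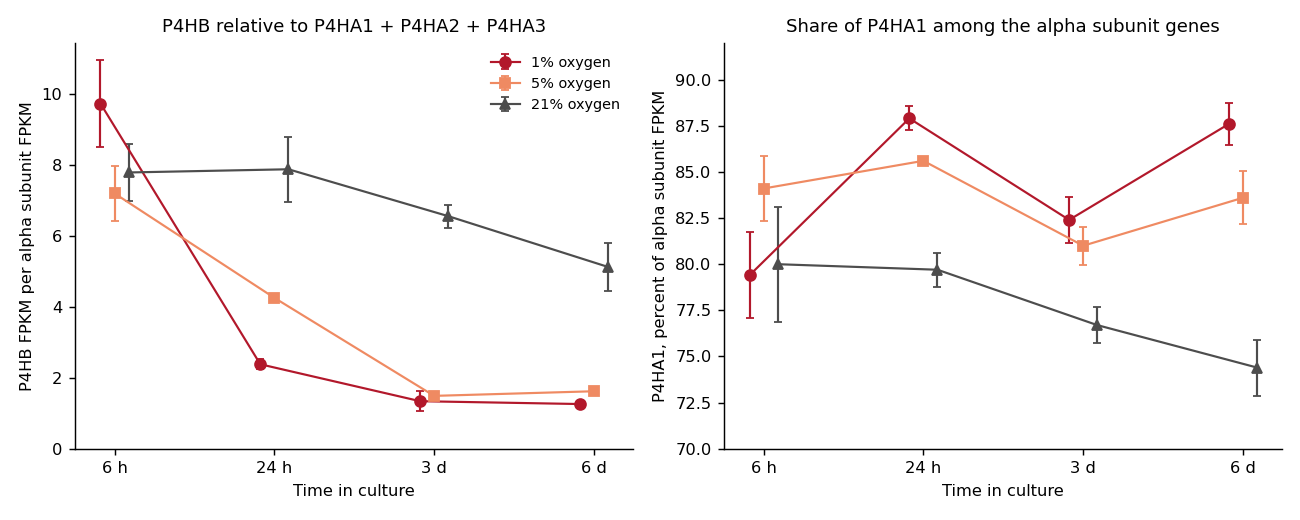
Left, FPKM of P4HB per FPKM of the alpha subunit genes (vertical axis, from 0) at 4 times; right, percent of the alpha subunit FPKM that is P4HA1 (vertical axis, from 70%), for 1%, 5% and 21% oxygen as mean ± SD of 3 libraries. The left panel shows 1.26 in 1% oxygen and 5.12 in 21% oxygen at 6 d, and the right panel 87.6% and 74.4%.

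PLOD1, the most abundant lysyl hydroxylase gene here, rose in low oxygen by smaller folds than the alpha subunits. At 24 h its level was 69.8, 61.98 and 59.97 FPKM in 1% oxygen, 47.02, 49.4 and 41.97 FPKM in 5% oxygen, and 32.7, 37.7 and 38.8 FPKM in 21% oxygen. The 3 levels did not overlap, with log2 differences from 21% oxygen of 0.80 ± 0.10 (SE, limma adjusted p = 4.65e-06) in 1% and 0.34 (limma adjusted p = 0.028) in 5% oxygen. The call in 5% oxygen was lost on leaving out replicate 1 or 3 of 21% oxygen or any 1 library of 5% oxygen at 24 h, with limma adjusted p between 0.0611 and 0.145. At 3 d the order of the low levels was the other way round, with 62.3, 62.5 and 56.7 FPKM in 1% oxygen and 85.9, 88.2 and 95.1 FPKM in 5% oxygen, against 47.6, 47.2 and 49.7 FPKM in 21% oxygen. The log2 difference from 21% oxygen was 0.32 (limma adjusted p = 0.00719) in 1% and 0.88 (limma adjusted p = 7.23e-08) in 5% oxygen. The first did not pass with only the compared groups in the fit (limma adjusted p = 0.147). At 6 d PLOD1 stood at 75.1, 69.4 and 76.6 FPKM in 1% oxygen, 60.6, 65.9 and 61.0 FPKM in 5% oxygen, and 39.6, 43.8 and 39.5 FPKM in 21% oxygen, with log2 differences of 0.83 and 0.60 that both passed.

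PLOD3, which also carries collagen glycosyltransferase activity, did not rise in low oxygen by any of these tests. At 3 d it was at 20.6, 21.5 and 5.78 FPKM in 1% oxygen, the last in the shallow library, at 24.8, 26.9 and 32.01 FPKM in 5% oxygen, and at 33.4, 36.03 and 33.9 FPKM in 21% oxygen. All libraries of both low levels lay below those of 21% oxygen. The log2 difference of -1.25 ± 0.24 (SE, limma adjusted p = 0.000138) in 1% oxygen rested in size on the shallow library: with that library left out of the fit it was -0.69 (limma adjusted p = 1.16e-05). With only the compared groups in the fit it did not pass (limma adjusted p = 0.203). In 5% oxygen it was -0.30 and did not pass (limma adjusted p = 0.456), though it passed at the same size with the shallow library left out (limma adjusted p = 0.0178). The all-gene median at 3 d was -0.32 in 1% oxygen with the shallow library and -0.015 without it, and -0.10 in 5% oxygen. At the other times PLOD3 stayed between 22.7 and 37.0 FPKM in every library and passed in no comparison of low with 21% oxygen.

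PLOD2, the lysyl hydroxylase of the collagen telopeptides and a well known hypoxia target in fibroblasts, was barely present. Its group means lay between 0.146 and 0.814 FPKM and it was above 0 in 35 of 36 libraries, the shallow library being the exception. At 6 d it was 0.573, 1.007 and 0.803 FPKM in 1% oxygen, 0.899, 0.561 and 0.799 FPKM in 5% oxygen, and 0.273, 0.243 and 0.603 FPKM in 21% oxygen. The groups overlapped at 6 d between low and 21% oxygen. In a fit without the filter its average log2 difference was 0.23 in 1% (limma adjusted p = 0.154) and 0.21 in 5% oxygen (limma adjusted p = 0.196), so no change was detectable at this level. PLOD2 made up 0.759% ± 0.248 in 1% oxygen, 0.845% ± 0.228 in 5% oxygen and 0.54% ± 0.296 in 21% oxygen of the summed lysyl hydroxylase level at 6 d (SD, n = 3 each). The log2 ratio of PLOD2 to PLOD1 was lower in low oxygen on average, with a difference of -0.29 in 1% and -0.27 in 5% (exact permutation adjusted p = 0.0415 and 0.0282) but with a pseudocount of 0.1 it was 0.02 and 0.17, so no direction is given. The log2 ratio of PLOD2 to PLOD3 was on average higher by 0.51 in 1% (-4.09 against -4.60) and by 0.27 in 5% oxygen (-4.33 against -4.60). The exact permutation adjusted p was 0.0282 in both, and the size depended on the same pseudocount (0.84 and 0.72). By time the sign was mixed, with -0.34, 0.49, 1.65 and 0.24 in 1% oxygen at 6 h, 24 h, 3 d and 6 d. In 5% oxygen the differences were -0.22, 0.40, 0.47 and 0.44. The largest, at 3 d in 1% oxygen, lay in the group with the shallow library.

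**Figure D3:**
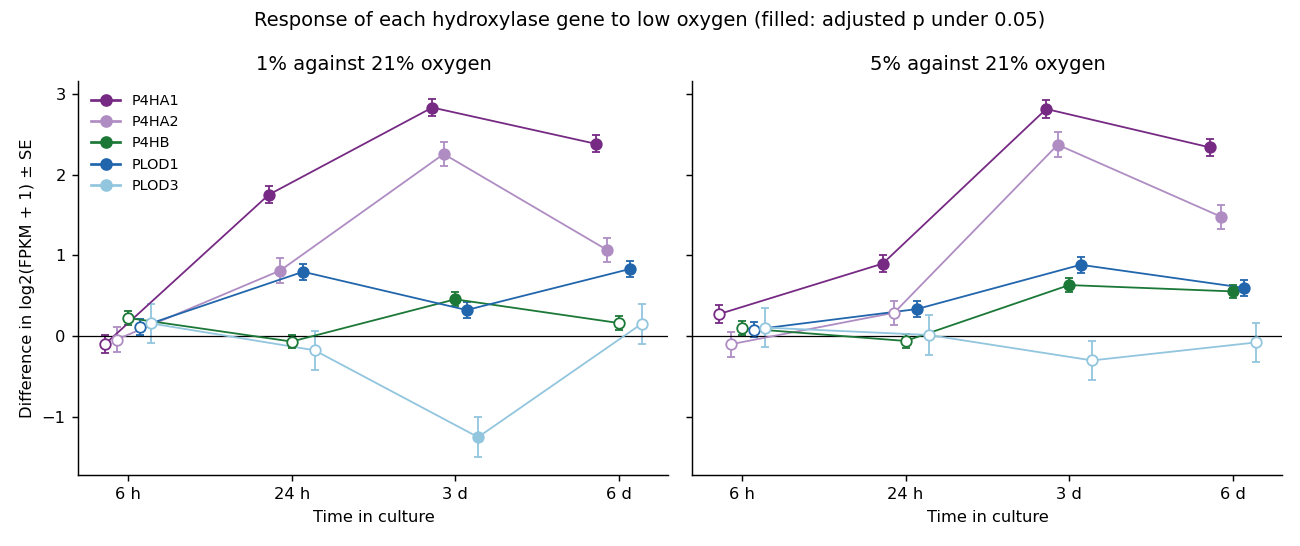
Log2 difference in FPKM + 1 (vertical axis) of the 5 tested genes from 21% oxygen at 4 times, for 1% oxygen (left) and 5% oxygen (right); bars are ± SE of the limma fit and filled points have an adjusted p under 0.05. P4HA1 peaks at 2.83 and 2.82 at 3 d, and PLOD3 is the gene below 0 at 3 d in both panels.

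The number of members that passed, in either direction, is set beside the percent of all genes tested that passed in the same comparison. In 1% against 21% oxygen, 0 of the 5 passed at 6 h (0% of all genes tested, with 351 of them at an unadjusted p under 0.05), 3 at 24 h (16.2%), 5 at 3 d (53.2%) and 3 at 6 d (10.9%). In 5% against 21% oxygen, 0 of the 5 passed at 6 h (0%, with 280 genes at an unadjusted p under 0.05), 2 at 24 h (9.38%), 4 at 3 d (21.8%) and 4 at 6 d (14.8%). At 6 h, P4HB in 1% (unadjusted p = 0.014) and P4HA1 in 5% oxygen (unadjusted p = 0.0163) were the members below an unadjusted 0.05. Averaged over the 4 times, 4 of 5 passed in 1% (31.4%) and 4 of 5 in 5% oxygen (24.2%), P4HA1, P4HA2, P4HB and PLOD1 in both; these comparisons share the libraries of 21% oxygen. The shares of all genes depended on the shallow library: without it they were 38.6% at 24 h, 53.7% at 3 d, 29.8% at 6 d and 49% on average in 1% oxygen, and 28.2%, 44.9%, 37% and 48.4% in 5% oxygen. The members passing were then 5 of 5 at 3 d in 5% and on average in 1% oxygen, PLOD3 being the one added, and the same numbers otherwise. With all libraries in the fit, the average log2 differences of P4HA1, P4HA2, P4HB and PLOD1 in 1% oxygen were 1.72, 1.02, 0.19 and 0.52. In 5% oxygen they were 1.58, 1.01, 0.31 and 0.47. PLOD3 had -0.28 in 1% (limma adjusted p = 0.0825; -0.14 with limma adjusted p = 0.0316 without the shallow library) and -0.07 in 5% oxygen.

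A limma F test of whether the difference from 21% oxygen varied between the 4 times passed for 5 of 5 in 1% oxygen (40.3% of all genes) and for 4 of 5 in 5% oxygen (14.5%), all but PLOD3 (limma adjusted p = 0.965). The same numbers of members passed without the shallow library, beside 63.3% and 41.9% of all genes. On TPM, P4HB passed in neither (limma adjusted p = 0.0838 in 1% and 0.227 in 5%), and PLOD1 missed in 5% oxygen (limma adjusted p = 0.0548). P4HA1 had the smallest adjusted p of the members in both, 1.12e-13 in 1% and 7.65e-13 in 5% oxygen.

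Set directly against 5% oxygen, 1% oxygen had higher P4HA1 and PLOD1 at 24 h, lower PLOD1 and PLOD3 at 3 d and lower P4HB at 6 d. At 6 h, 0 of 5 members passed (0.0471% of all genes). At 24 h, 2 of 5 passed (0.744%): P4HA1 was higher in 1% by a log2 difference of 0.85 (limma adjusted p = 1.71e-05) and PLOD1 by 0.46 (limma adjusted p = 0.0133). The PLOD1 call was lost without replicate 1 of 1% oxygen at 24 h (limma adjusted p = 0.159), without replicate 3 of 5% oxygen at 24 h (limma adjusted p = 0.125) and on TPM (limma adjusted p = 0.151). P4HA2 was at 0.52 without passing (limma adjusted p = 0.152; 0.0149 without the shallow library). At 3 d, 2 of 5 passed (36.6%), with PLOD1 at -0.56 (limma adjusted p = 0.000265; -0.24 on TPM, which did not pass) and PLOD3 at -0.95 (limma adjusted p = 0.0059; -0.38 with limma adjusted p = 0.0143 without the shallow library). With only the compared groups in the fit neither passed at 3 d (limma adjusted p = 0.636 for both), and with array weights PLOD3 was at -0.32 and did not pass (limma adjusted p = 0.0771). P4HA1 differed by 0.02 and P4HA2 by -0.11 at that time, with standard errors of 0.11 and 0.15; under quantile normalization P4HA1 was higher in 1% by 0.28 and passed (limma adjusted p = 0.0228). At 6 d, 1 of 5 passed (8.61%), P4HB, at -0.39 (limma adjusted p = 0.00279). Averaged over the 4 times, 0 of 5 passed (4.41%), with P4HA1 at 0.14 and P4HB at -0.11 having unadjusted p values of 0.0169 and 0.0141; without the shallow library P4HA1 passed, at 0.17 (limma adjusted p = 0.0149). At 6 h the log2 difference of P4HA1 was -0.37, which did not pass (limma adjusted p = 0.353) except without the shallow library (limma adjusted p = 0.038) or with array weights (limma adjusted p = 0.00551). P4HA2 at 6 d, at -0.41, did not pass either (limma adjusted p = 0.099; 0.0137 without the shallow library). Without that library the members passing were 1, 3, 2, 2 and 1 of 5 at 6 h, 24 h, 3 d, 6 d and on average, beside 1.26%, 2.95%, 26.9%, 27.6% and 14.2% of all genes.

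In 21% oxygen itself several members rose with time. At 24 h against 6 h, 0 of 5 passed (0.132% of all genes). At 3 d against 6 h, 4 of 5 passed (4.6%), with log2 differences of 0.50 for P4HA1, 0.71 for P4HA2, 0.33 for P4HB and 0.45 for PLOD1. P4HB no longer passed when any of 5 of the 6 libraries compared was left out (limma adjusted p between 0.0512 and 0.163; replicate 2 of 6 h was the exception). At 6 d against 6 h, 2 of 5 passed (11.1%), P4HA1 at 0.52 (limma adjusted p = 0.00169) and P4HA2 at 0.89 (limma adjusted p = 0.000254). The drift of P4HA2 in 21% oxygen put its 6 d level, 9.86 to 14.2 FPKM, in the range of that in 1% oxygen at 24 h, 10.9 to 12.3 FPKM. When the shallow library was left out, as many members passed, beside 2.42% of all genes at 24 h, 18.1% at 3 d and 29.3% at 6 d.

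The comparison of 6 d with 3 d within each oxygen level was added after the values were seen. In 1% oxygen, 5 of 5 passed (49% of all genes): P4HA1 fell by 0.43, P4HA2 by 1.01 and P4HB by 0.59 on the log2 scale, while PLOD1 rose by 0.28 and PLOD3 by 1.12. The all-gene median of that comparison was 0.31 with the shallow library and 0.02 without it. Without the shallow library PLOD1 no longer passed (0.24, limma adjusted p = 0.0614) and PLOD3 passed at 0.55; PLOD1 was also lost without replicate 1 or 3 of 6 d (limma adjusted p = 0.0555 and 0.0681). None of the 5 passed with only the compared groups in the fit. In 5% oxygen, 4 of 5 passed (7.41%), with log2 differences of -0.46 for P4HA1, -0.71 for P4HA2, -0.38 for P4HB and -0.52 for PLOD1. P4HB was lost without replicate 3 of 3 d (limma adjusted p = 0.0669) and P4HA1 without replicate 3 of 6 d (limma adjusted p = 0.0506). In 21% oxygen, 0 of 5 passed (1.06%), where P4HB at -0.30 and PLOD1 at -0.23 had unadjusted p values of 0.00162 and 0.0255, and P4HB passed without the shallow library (limma adjusted p = 0.0274). Rescaling to TPM, which moved the all-gene median in 5% oxygen to 0.22 against 0.04, left 0 of 5 there. The shares of all genes without the shallow library were 44.6% in 1%, 25% in 5% and 7.29% in 21% oxygen.

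In the order of the 12 groups, P4HA1 was highest in 1% oxygen at 3 d and 5% oxygen at 3 d, which overlapped, followed by 1% and 5% oxygen at 6 d, which overlapped too. The 24 h groups of 1% and 5% oxygen came next, each apart from its neighbours, and then the 21% groups of 6 d and 3 d, which overlapped. Its 3 lowest groups were 21% oxygen at 24 h, 21% oxygen at 6 h and 1% oxygen at 6 h, each overlapping the next. P4HA2 began with 5% and 1% oxygen at 3 d, overlapping, and ended with all 6 h groups and 21% oxygen at 24 h, also overlapping. P4HB and PLOD1 were both highest in 5% oxygen at 3 d and lowest in 21% oxygen at 6 h, PLOD1 over a 2.56-fold range of group means. PLOD3 was highest in 21% oxygen at 3 d, and no 2 neighbours among its 11 highest groups stood apart.

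The genes whose 12 group means were most like those of each member, by Pearson r among 7260 genes that averaged 5 FPKM or more, are given as a description; all points share the same libraries. For P4HA1 they were BNIP3L (r = 0.987), EGLN3 (0.985), LRRC8D (0.98), ZNF160 (0.976) and ENO2 (0.976), and P4HA2 ranked 18th with 0.957. BNIP3L, a mitophagy receptor gene, had 163 FPKM in 1% oxygen, 140 FPKM in 5% oxygen and 24.5 FPKM in 21% oxygen at 3 d. For P4HA2 they were ARG2 (0.987), ITGA5 (0.985), BHLHE40 (0.984), SLC2A3 (0.982) and DLK1 (0.982). Each of these 5 had its highest group mean at 3 d in 1% or 5% oxygen. For P4HB they were PLD3, CTNNA1, WDR45, HERPUD1 and ERCC1 (0.968 to 0.977), and for PLOD1 LRRC8D, TNIP1, DCAF6, PFKFB4 and ADAMTSL4 (0.93 to 0.955). LRRC8D, a subunit gene of volume-regulated anion channels, thus stood in the lists of P4HA1 and PLOD1. For PLOD3 they were TEAD4, PSPH, NDUFA10, CNPY3 and MEIS2 (0.976 to 0.986), a likeness that rested in part on the shallow library: without it r was 0.937 for TEAD4 and 0.671 for PSPH. PLOD3 had negative r with the other tested members, at -0.61 with P4HA2 and -0.285 with PLOD1. Among the 7260 genes it ranked 4587th in likeness to P4HA2 and 3740th in likeness to PLOD1, so many genes had a lower r.

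The transcript table lists 4 transcripts of P4HA1, 4 of P4HA2, 2 of PLOD2 and 1 of each other member. Their sums match the gene values, with a largest difference in any library of 0.004 FPKM, for P4HA2. It uses the same reads and is no independent support. NM_004199 of P4HA2 and the transcripts of P4HA3 and PLOD2 averaged below 1 FPKM and did not enter the tests. Of the members' other transcripts, all tested, 4 passed in 1% against 21% oxygen averaged over the 4 times, where 15.9% of 15360 transcripts did. They were NM_001017962 and NM_001142596 of P4HA1, and the single transcripts of P4HB and PLOD1. The main P4HA1 transcript, NM_000917, averaged 72.6 FPKM and had a log2 difference of 1.11 ± 0.51 (SE, limma adjusted p = 0.144) in 1% oxygen; in 5% oxygen it passed, at 1.60 (limma adjusted p = 0.0376). Its widest spread lay in the group with the shallow library, 143 ± 124 FPKM in 1% oxygen at 3 d (SD, n = 3). Both P4HA1 transcripts that passed spread widely there too, NM_001142596 at 74.05 ± 113 FPKM and NM_001017962 at 11.4 ± 19.8 FPKM (SD, n = 3 each). NM_000917 also spread in 5% oxygen at 6 h, at 19.7 ± 7.95 FPKM (SD, n = 3). It was closer between replicates at 24 h, with 66.5 ± 2.32 FPKM in 1% oxygen and 18.8 ± 2 FPKM in 21% oxygen. At 3 d it had 207 ± 4.58 FPKM in 5% oxygen and 27.2 ± 3.3 FPKM in 21% oxygen (SD, n = 3 each). NM_001017974 of P4HA2 had 38.85 ± 2.26 FPKM in 5% oxygen and 6.03 ± 0.727 FPKM in 21% oxygen at 3 d (SD, n = 3 each), though averaged over the 4 times it did not pass (0.98, limma adjusted p = 0.0792). Without the shallow library 8 of the same tested transcripts of the members passed in 1% against 21% oxygen averaged over the 4 times. The share of all transcripts passing in that fit was not computed, so 15.9% is not its background. For all genes the share went from 31.4% to 49% when that library was left out.

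Genes of the neighbouring steps moved in both directions, as did all genes tested. In the counts that follow, 1% oxygen is set against 21% oxygen averaged over the 4 times, where all genes had a median log2 difference of -0.07 (0.003 without the shallow library), and a list's median beside it is a description. Of 3 tested prolyl 3-hydroxylase complex genes, 0 rose and 1 fell, PPIB, a peptidyl-prolyl isomerase, by 0.28 on the log2 scale; LEPRE1 was at 0.47 without passing (limma adjusted p = 0.0601). At 24 h alone, 2 of the 3 rose, LEPRE1 and CRTAP, and PPIB fell. The whole tested set at 24 h gave 697 rises and 1026 falls, a share of 16.2%, or 38.6% with the shallow library dropped. Of 9 tested collagen glycosyltransferases and chaperones, 0 rose and 4 fell (median -0.24): SERPINH1, the collagen chaperone HSP47, at -0.47, the collagen galactosyltransferases GLT25D1 at -0.50 and GLT25D2 at -0.49, and TMEM38B, an endoplasmic reticulum cation channel, at -0.24. Without the shallow library 1 rose and 5 fell, with SERPINH1 at -0.38 and GLT25D1 at -0.32. Of 10 genes of collagen export and extracellular processing, 1 rose, ADAMTS3, a procollagen peptidase, at 0.22, and 1 fell, CTAGE5, which helps load large cargo for export, at -0.17 (4 and 1 without the shallow library). In 5% against 21% oxygen, 0 rose and 0 fell in the first of these lists, 1 rose and 2 fell in the next, and 2 rose and 1 fell in the last. Of all genes tested, 1317 rose and 2022 fell in 1% oxygen, and 979 rose and 1594 fell in 5% oxygen. In 1% oxygen 31.4% of all genes thus passed, and 49% without the shallow library.

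The substrates and the later enzymes were scarce. Of 42 collagen chain genes 3 passed the filter, COL1A2 at a mean of 4.26 FPKM, COL15A1 at 3.04 FPKM and COL18A1 at 2.88 FPKM, and 0 passed the test in 1% against 21% oxygen averaged over time, with log2 differences of -0.05, -0.20 and 0.05 (limma adjusted p = 0.61, 0.413 and 0.804). Without the shallow library COL15A1 was at 0.009 and COL18A1 at 0.17, neither of which passed. At 3 d in 1% oxygen COL1A2 rose by 0.65 (limma adjusted p = 0.000186), with group means of 8.495 FPKM in 1% and 5.08 FPKM in 21% oxygen, and COL18A1 fell by 0.76, a call lost without the shallow library (-0.28, limma adjusted p = 0.157). Averaged over time, COL1A2 rose in 5% oxygen by 0.27 (limma adjusted p = 0.00203). Of 5 lysyl oxidases 1 was tested, LOXL3, which fell by 0.35. Of 31 other genes whose products hold a collagen-like stretch, 2 were tested and 1 fell, COLEC11, a soluble lectin, by 0.36. Beside these counts, 31.4% of all genes passed in 1% oxygen averaged over time, 53.2% at 3 d, and 24.2% in 5% oxygen averaged over time.

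Genes of related enzymes and cofactors gave mixed counts. In the same average of 1% against 21% oxygen, 31.4% of all genes passed (49% without the shallow library), with 1317 higher and 2022 lower. Of 8 tested genes listed as HIF and other prolyl hydroxylases, 3 rose and 1 fell (median -0.13, and 0.04 without the shallow library): EGLN3 at 2.41 and EGLN1 at 0.61, which hydroxylate HIF alpha subunits, ASPH, which acts on aspartate and asparagine and not on proline, at 0.54, and OGFOD1, which hydroxylates a ribosomal protein, at -0.27. Of 15 tested genes of the disulfide isomerase family and its oxidases, 2 rose, ERO1L, the oxidase that recharges disulfide isomerase, at 0.91 and PDIA5 at 0.76, and 5 fell, among them TXNDC12 at -0.34 and TMX2 at -0.46; without the shallow library 3 rose and 6 fell. Of 7 tested genes of proline synthesis and recycling, 0 rose and 3 fell (median -0.39). They were the synthesis enzymes ALDH18A1 at -0.48 and PYCR1 at -0.32 and the breakdown enzyme ALDH4A1 at -0.66. Without the shallow library the median was -0.16 and again 3 fell, with ALDH4A1 at -0.40. The fall lay at 3 d, where 6 of the 7 fell (median -1.55 beside -0.32 over all genes). At that time 53.2% of all genes passed, with 1791 higher and 3858 lower. Without the shallow library 6 fell at 3 d too (median -0.91 beside -0.015), where 53.7% of all genes passed. At 6 h, 24 h and 6 d 0 fell, and 1 rose at 6 d (0%, 16.2% and 10.9% of all genes passed). Of 4 tested genes of ascorbate uptake and recycling 1 rose, CYB5R3, a cytochrome b5 reductase, at 0.15, and 0 fell; without the shallow library 2 rose, CYB5R3 at 0.12 and SLC23A2, an ascorbate transporter, at 0.22.

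**Figure D4:**
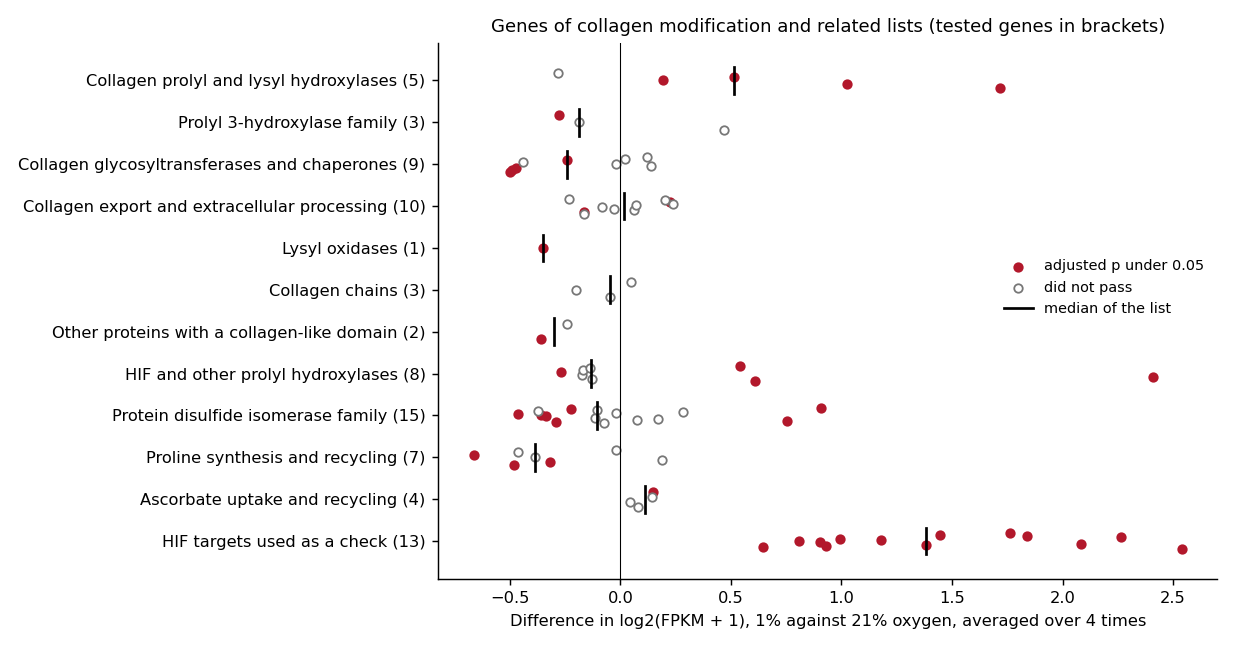
Log2 difference in FPKM + 1 between 1% and 21% oxygen, averaged over 4 times (horizontal axis), of the tested genes of each list (rows, number of genes in brackets); filled points have an adjusted p under 0.05 and vertical bars are list medians. The hydroxylases run from -0.28 (PLOD3) to 1.72 (P4HA1), the 13 HIF targets lie above 0 with a median of 1.38, and 4 of the 9 glycosyltransferases and chaperones are filled below 0.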

How the data were processed

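RNA of 36 K562 libraries was measured by polyA-selected RNA sequencing in the Smart-seq2 manner with paired-end reads, per the labels' protocols. The authors deposited FPKM values per gene and per transcript, made with TopHat and the Cufflinks suite (cuffquant, Cuffnorm) per the submitters' processing notes and design text. Their versions and the genome build and annotation used are not stated there. The tables hold no counts, so counting error is unknown. Relative depth, estimated from the values of rarely detected genes, lay between 0.344 and 1.5 in 35 libraries and was 0.00646 in the shallow one, where the estimate rests on 21 genes.

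Libraries were grouped by their labels. The FPKM were transformed to log2(FPKM + 1), and genes averaging 1 FPKM or more were tested with limma 3.58.1 in R 4.3.3: 12 group means in 1 fit, a trended prior, 24 residual degrees of freedom, moderated two-sided tests adjusted by Benjamini-Hochberg over 10625 genes, threshold 0.05. Ratios of member genes were compared by exact permutation within times. The procedure was tested on simulated data. Promoter windows are RefSeq's, and plots were made with Python 3.11.15 and matplotlib 3.10.9. Genes named beside the members are up to 4 per list with the smallest adjusted p and the 5 most alike by r; a few others were chosen after their values were seen (LEPRE1, LOXL3, collagen chains, markers). The members, gene lists and comparisons were chosen with earlier results of these data known. No pair of libraries held identical values. Replicate numbers shared between groups did not pair the libraries: in 1 of 66 pairs of groups all 3 same-numbered libraries deviated together with r above 0.1. Alternatives were another pseudocount, other filters, quantile normalization, TPM, array weights, fits on the compared groups, the replicate number as a block, and leaving out each library.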

Additional observations from a re-analysis of the deposited data

Results flagged for a closer look

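The difference from 21% oxygen varied between the 4 times, by a limma F test on 3 contrasts with Benjamini-Hochberg adjustment over all genes, for these hydroxylase genes. In 1% oxygen the limma adjusted p was 1.12e-13 for P4HA1, 4.37e-08 for P4HA2, 0.00887 for P4HB, 0.000171 for PLOD1 and 0.00456 for PLOD3. In 5% oxygen the limma adjusted p was 7.65e-13 for P4HA1, 2.54e-09 for P4HA2, 0.000135 for P4HB and 0.000573 for PLOD1. The log2 differences behind them ran for P4HA1 from -0.10 at 6 h to 2.83 at 3 d in 1% oxygen and from 0.27 to 2.82 at the same times in 5% oxygen. Such variation passed for 40.3% of all genes in 1% and 14.5% in 5% oxygen, and for 63.3% and 41.9% without replicate 3 of 1% oxygen at 3 d.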

How the results depend on the processing

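Of 654 alternatives for counts of members and for ratios, 600 kept direction and side of the threshold or a count within 1.5 times. The replicate block of the ratios gave a value only and was counted as kept without a test. The fit without the shallow library was counted again among those leaving out each library, where its group was compared. The tally is thus not one of independent checks, and that of single members below repeats the same fit. Fitting the replicate number as a block (replicate block) left the count for 1% against 21% oxygen averaged over time at 4 of 5. The numbers of members passing that moved by more than 1.5 times, or to or from 0, were as follows, and smaller changes are left out. With only the compared groups in the fit they were 3 in 1% against 21% at 3 d, 0 in 5% against 21% at 24 h, 1, 0 and 3 in 1% against 5% at 24 h, 3 d and 6 d, and 0 and 3 for 6 d against 3 d in 1% and 21% oxygen. On TPM they were 4 in 5% against 21% at 24 h, 1 and 1 in 1% against 5% at 24 h and 3 d, 0 for 6 d against 3 d in 5% oxygen, and 2 for the variation with time in 5% oxygen. With array weights they were 1, 4, 1, 2 and 2 in 1% against 5% at 6 h, 24 h, 3 d, 6 d and on average, and 3 for 6 d against 3 d in 21% oxygen. Without the shallow library they were 1, 2 and 1 in 1% against 5% at 6 h, 6 d and on average, 1 for 6 d against 3 d in 21% oxygen, and 8 transcripts. Quantile normalization gave 2 and 1 in 1% against 5% at 6 d and on average, and no filter gave 1 in 5% against 21% at 24 h. The cause was not tested.

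Reversed values were P4HB at 24 h in 1% (log2 difference 0.30 by quantile normalization, 0.39 by TPM) and 5% against 21% (0.39 by TPM), and PLOD1 at 6 d against 3 d in 1% oxygen (-0.014 by TPM). The log2 ratio of PLOD2 to PLOD1 became 0.017 in 1% and 0.17 in 5% oxygen with a pseudocount of 0.1, and -0.20 in 1% without the shallow library. Leaving out 1 library gave 1 to 2 members in 5% against 21% at 24 h, 1 to 2 in 1% against 5% at 24 h and 0 to 1 on average. It gave log2 ratios of PLOD2 to PLOD1 of -0.35 to -0.20 in 1% and -0.30 to -0.21 in 5% oxygen, and of PLOD2 to PLOD3 of 0.24 to 0.33 in 5% oxygen. For single members, 973 of 1035 other alternatives and 1118 of 1140 that left out a library changed no call. Depth is unknown, so for P4HA3 and PLOD2 a change could not be detected rather than being absent.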
